A study of Mus musculus with 80 samples.

Results

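Embryonic stem (ES) cells of the mouse labelled Sall4 KO (genotype Sall4 delta/-) were set against ES cells labelled Sall4 het (genotype Sall4 flox/-), with RNA sequencing tables of 2 KO and 2 het libraries. These 4 libraries were chosen by their genotype and assay labels out of 80 samples in the series, 12 of them RNA-seq libraries with expression tables. In both groups 1 allele is labelled as null, and the groups differ in the other, which is floxed in het cells and deleted in KO cells, so Sall4 wild-type cells are not part of this contrast. Replicate 1 of each group carries the strain label C57BL/6J, and replicate 2 carries 129P2/OlaHsd and the cell line E14.1. Replicates 1 and 2 of a group share 1 biological sample identifier, so separate cultures are not shown, and a p-value here measures a spread that may be technical only. The sources used here do not say whether the KO cells are 1 clone or how the floxed allele was deleted. The growth protocol names gelatin-coated dishes without feeder cells and medium with LIF, serum replacement and a little dialysed serum. Another group of 2 libraries, of Sall4 KO cells given a mutant Sall4A (labelled a Flag-tagged transgene in replicate 2), entered the test and gives side values; the sources used here do not name the mutation. Further side values come from a Sall1-/-/Sall4-/- double knockout (DKO) and its wild-type control, and from Sall1 KO and Sall1 het cells, with 1 library each.

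SALL4 is a zinc finger transcription factor of the spalt-like family that binds DNA in ES cells, early embryos and germ cells. It recruits the histone deacetylase complex NuRD and is known for a part in keeping ES cells undifferentiated, and it has a close relative in SALL1. The series it comes from concerns SALL4A and the TET dioxygenases, which oxidise 5-methylcytosine, the methylated base found mostly at CG dinucleotides.

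Replicate 1 values are FPKM (fragments scaled to gene length and to mapped fragments) and replicate 2 values are RPKM (the same for reads). Each change was taken within a unit: pair 1 is KO over het in FPKM and pair 2 is KO over het in RPKM. A change is the difference of log2(value + 1) between KO and het after both libraries were brought to the same median ratio, so a change of 1 is 2-fold on that scale and low genes are understated. Depth is unknown, since these units hold no read totals, and no counting interval can be given. Of 17775 gene symbols listed in all 4 tables, 14182 reached a value of 1 in at least 1 library of each pair and were compared.

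Sall4 RNA was not low in the libraries labelled KO. It stood at 358 FPKM and 218 RPKM in the KO libraries, against 196 FPKM and 64.2 RPKM in the het libraries. KO lay above het in both pairs, with changes of 0.88 and 1.69 in pairs 1 and 2, and limma gave an adjusted p of 0.666. The sources used here do not name the deleted exons, and reads from exons that remain would count, so this level cannot check the genotype. KO and het mean the labels throughout. The cells carried ES cell RNA in both groups. Of 28 fixed pluripotency genes 27 were measured, with scaled sums of 5192 and 7005 in KO libraries and 5033 and 6834 in het libraries. Fibroblast feeder markers were low, with 15 of 21 listed, 3 of them under 1 in all 4 libraries, and scaled sums of 154 and 60.7 in KO against 81.8 and 66.1 in het. The higher KO sum of pair 1 came with Tagln at 53.9 FPKM against 26.3 FPKM and Fbn1 at 44.6 FPKM against 11.2 FPKM. In replicate 2 Fbn1 was only 0.609 RPKM in KO and 0.249 RPKM in het, so its level differed widely between the pairs.

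No single gene passed the test. Limma, fitted on 6 libraries with group and replicate number as terms (the other 2 were KO cells given a mutant SALL4A, which add only to the estimate of the spread), gave 0 calls among 15208 genes (0%), with 0.05 as the limit on adjusted p. An unadjusted p under 0.05 was given to 1290 genes, 604 higher and 686 lower in KO, and the smallest adjusted p was 0.134. Limma on the 4 KO and het libraries alone also gave 0 calls, with a smallest adjusted p of 0.106. The adjusted p of single genes thus depended on the added group, as for Dpp4 (0.270 with it and 0.149 without). The genes below are therefore described by how far the 2 pairs agree and are not called.

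At 2-fold, 156 genes were higher in KO in both pairs (1.1% of the genes compared) and 213 were lower in both (1.5%), while 110 went in opposite directions (0.776%). Pair 1 alone had 513 genes at 2-fold higher (3.62%) and 571 lower (4.03%), and pair 2 had 684 higher (4.82%) and 941 lower (6.64%). By any amount, 30.1% of genes were higher in both pairs and 29.5% lower in both. Pearson's r between the changes of the pairs was 0.26 and Spearman's rho 0.31, both across genes, which do not count as replicates. The share of genes with the same sign was 59.4% of 3989 genes with a mean level under 5 and 57.7% of 1622 genes at 100 or more, while Pearson's r was 0.34 in the low genes and 0.15 in the high ones. The 3 classes differed in what they held. Predicted genes, clones, pseudogenes and small RNAs made up 80.0% of the genes in opposite directions, against 39.7% of those higher in both, 40.8% of those lower in both and 27.6% of all genes compared.

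**Figure D1:**
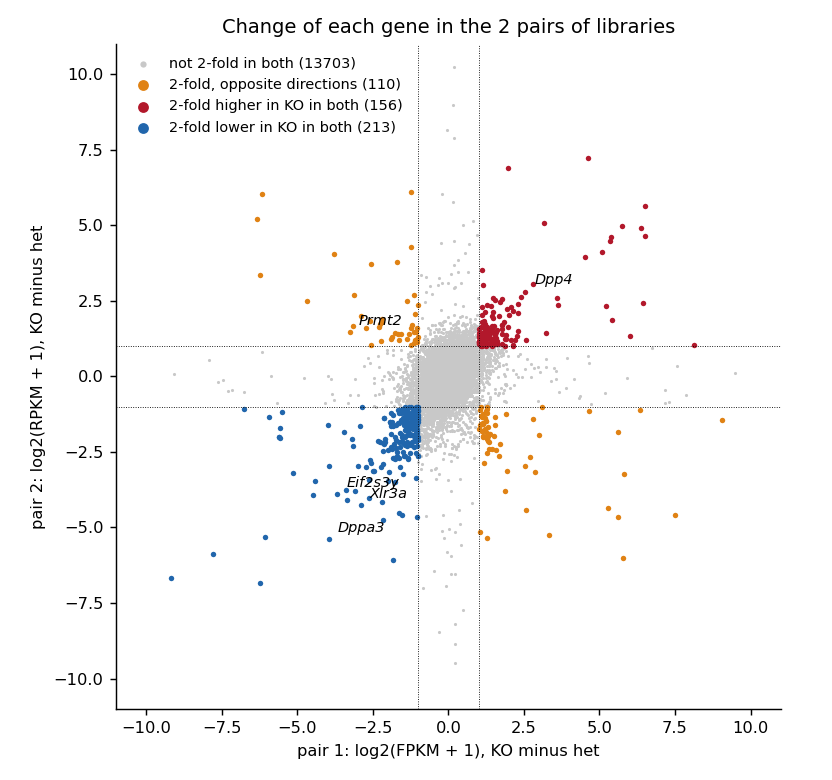
Change of each of 14182 genes, KO minus het on the log2(value + 1) scale, in pair 1 (FPKM, x axis) and pair 2 (RPKM, y axis); dotted lines mark 2-fold. Points fill the lower left (213 genes, Dppa3 among them) and upper right (156 genes, Dpp4 among them) more than the other 2 corners (110 genes together).

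The gene that led the higher side was Dpp4 (chromosome 2, 62168129 to 62308970 in mm9), which encodes a cell-surface peptidase. It stood at 44.4 FPKM and 37.7 RPKM in the KO libraries, against 6.88 FPKM and 4.35 RPKM in the het libraries. The KO values lay far above the het values in both pairs, with changes of 2.54 and 2.80. Emp1, which encodes an epithelial membrane protein, was 58.5 FPKM and 51.4 RPKM in the KO libraries, against 11.2 FPKM and 8.54 RPKM in the het libraries. The imprinted, paternally expressed zinc finger gene Peg3 was 38.4 FPKM and 19.097 RPKM in the KO libraries, against 8.02 FPKM and 3.31 RPKM in the het libraries. Wls, which encodes the carrier that takes WNT proteins to the cell surface, was 12.9 FPKM and 6.64 RPKM in the KO libraries, against 1.85 FPKM and 0.753 RPKM in the het libraries. Fstl1, a gene of a secreted follistatin-like glycoprotein that is listed in 3 entries of the pair 1 tables, was 66.3 FPKM and 55.4 RPKM in the KO libraries, against 15.3 FPKM and 9.98 RPKM in the het libraries. In these 4 genes, too, KO was above het in both pairs, and the changes in pairs 1 and 2 were 2.30 and 2.40 for Emp1, 2.14 and 2.17 for Peg3, 2.30 and 2.09 for Wls and 2.06 and 2.31 for Fstl1.

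Several of the next genes encode proteins of the cell surface and its membrane. Pmp22, of the same family as Emp1, was 21.9 FPKM and 7.35 RPKM in the KO libraries, against 5.48 FPKM and 1.31 RPKM in the het libraries. Cav1, the gene of the caveolar coat protein caveolin 1, was 14.3 FPKM and 6.50 RPKM in the KO libraries, against 2.93 FPKM and 1.37 RPKM in the het libraries. Abca1, the exporter of cholesterol to lipoproteins, was 5.91 FPKM and 5.56 RPKM in the KO libraries, against 1.19 FPKM and 0.616 RPKM in the het libraries. All 3 were higher in KO in both pairs, by 1.83 and 1.81, 1.97 and 1.62 and 1.67 and 1.99 in that order. Itm2a, the gene of an integral membrane protein, had changes of 1.96 and 2.23, Cachd1 1.78 and 2.55, Lpar4, a receptor for lysophosphatidic acid, 1.39 and 1.47, Raet1d, a ligand of the NKG2D receptor, 1.42 and 1.49 and Tmem90b 2.00 and 2.03. Dpysl3, which encodes a cytoskeletal protein of growing neurites, had changes of 1.76 and 1.71, and Mras, a RAS-related GTPase gene, 1.53 and 1.39. The growth factor gene Igf2, imprinted like Peg3, was 45.2 FPKM and 16.1 RPKM in the KO libraries, against 15.7 FPKM and 2.79 RPKM in the het libraries. Its changes were 1.48 and 2.12. Hal, the enzyme that starts histidine breakdown (1.78 and 1.69), the lipase gene Pla2g7 (3.25 and 1.44), the DNA sensor gene Aim2 (1.79 and 1.41), the splicing regulator gene Mbnl2 (1.404 and 2.34), the peptide-processing enzyme gene Cpe (1.45 and 1.49), the engulfment adaptor gene Gulp1 (1.46 and 1.92), Ckap4 (1.38 and 1.45) and Commd3 (2.29 and 1.505) completed the 25 together with Kdm4b. Kdm4b, a histone H3 lysine 9 demethylase gene, stood at 36.0 FPKM and 37.5 RPKM in the KO libraries, against 12.3 FPKM and 5.11 RPKM in the het libraries, and at 5.46 FPKM and 39.8 RPKM in the KO cells given mutant SALL4A. The mutant library of replicate 1 was thus below the het library of its pair, and that of replicate 2 was above it. In these 25 genes limma adjusted p ranged from 0.270 to 0.640, and 24 of them had an unadjusted p under 0.05.

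**Figure D2:**
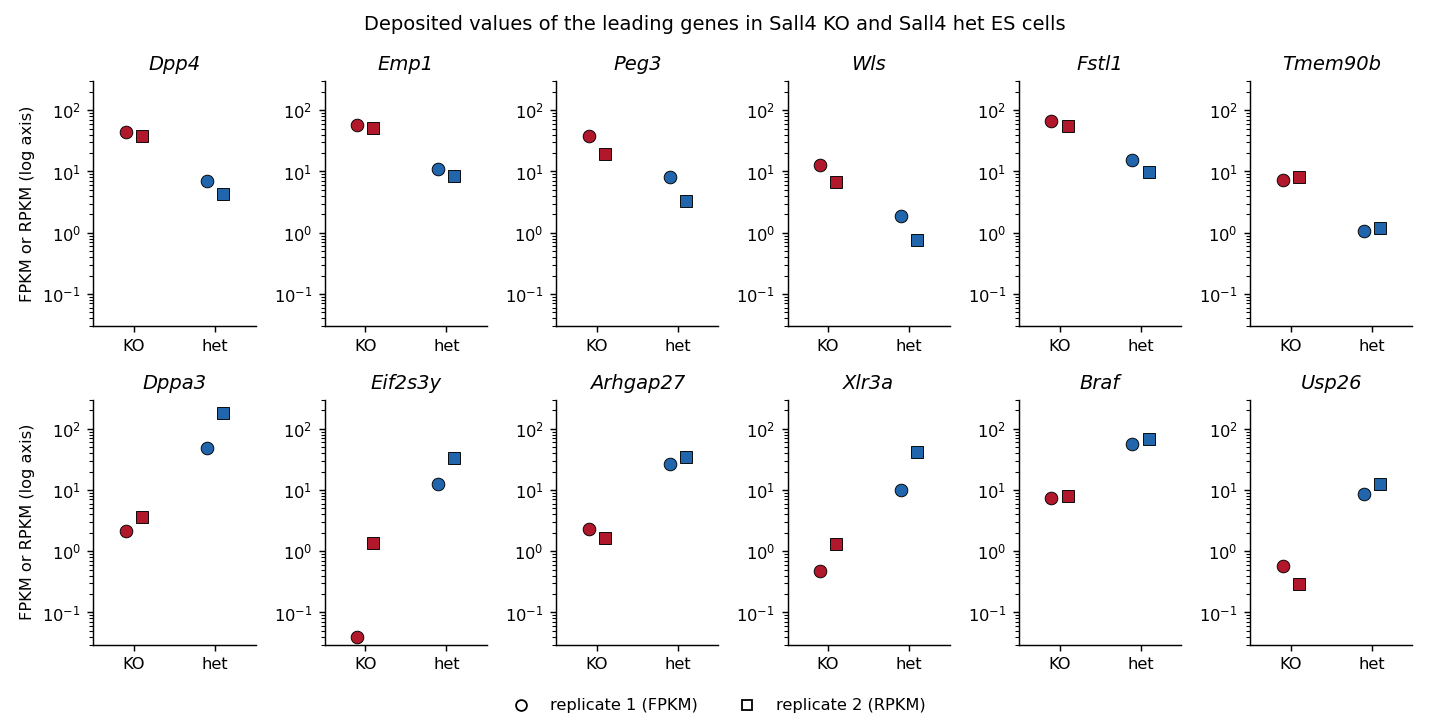
Deposited values (log axis) of the 6 genes ranked first on the higher side (upper row) and on the lower side (lower row), in KO (red, left) and het (blue, right) libraries; circles are replicate 1 in FPKM and squares replicate 2 in RPKM. In each of the 12 panels the KO point lies on the same side of the het point for circles and for squares, from Dpp4 (44.4 and 37.7 against 6.88 and 4.35) to Usp26 (0.572 and 0.295 against 8.74 and 12.6).

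The lower side was led by Dppa3 (chromosome 6, 122576427 to 122580290 in mm9), also known as Stella, which protects 5-methylcytosine from oxidation in the early embryo. It stood at 2.11 FPKM and 3.58 RPKM in the KO libraries, against 47.7 FPKM and 183 RPKM in the het libraries. The KO values were lower in both pairs, with changes of -3.96 and -5.38. In the DKO library and its control Dppa3 was 109.5 and 58.4 FPKM, a change of 0.92, on the other side of 0. Xlr3a, of an X-linked lymphocyte-regulated gene cluster that is expressed in germ cells, was 0.484 FPKM and 1.32 RPKM in the KO libraries, against 10.1 FPKM and 42.3 RPKM in the het libraries. Usp26, a deubiquitinase gene of the X chromosome known from testis, was 0.572 FPKM and 0.295 RPKM in the KO libraries, against 8.74 FPKM and 12.6 RPKM in the het libraries. Mt4, a metallothionein gene, was 0.896 FPKM and 0.635 RPKM in the KO libraries, against 10.7 FPKM and 25.2 RPKM in the het libraries. Hormad2, whose product binds the axes of meiotic chromosomes, was 0.356 FPKM and 0.333 RPKM in the KO libraries, against 5.26 FPKM and 22.1 RPKM in the het libraries. KO was below het in both pairs in all 5 genes. In pairs 1 and 2 the changes were -2.89 and -4.26 for Xlr3a, -2.62 and -3.42 for Usp26, -2.61 and -4.04 for Mt4 and -2.20 and -4.15 for Hormad2.

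A further group of the 25 lower genes is known from germ cells. Aurkc, the Aurora kinase of meiosis, was 0.852 FPKM and 0.385 RPKM in the KO libraries, against 7.43 FPKM and 6.56 RPKM in the het libraries. Tuba3a, a testis alpha tubulin gene, was 8.93 FPKM and 4.53 RPKM in the KO libraries, against 38.1 FPKM and 46.6 RPKM in the het libraries. Cyct, the testis form of cytochrome c, had changes of -1.77 and -3.49, Fkbp6, a piRNA pathway factor gene, -1.80 and -2.25 and Fmr1nb -1.80 and -2.71. The retinoic acid binding protein gene Crabp1 was 15.1 FPKM and 13.3 RPKM in the KO libraries, against 52.7 FPKM and 58.0 RPKM in the het libraries, with changes of -1.73 and -2.10. Magohb, an exon junction complex gene, was 3.32 FPKM and 6.97 RPKM in the KO libraries, against 23.5 FPKM and 66.5 RPKM in the het libraries. Its changes were -2.49 and -3.14. The others were Calml4 (-2.45 and -3.12), Lgals7 (-2.22 and -2.995), Tmem40 (-2.17 and -2.20), Pnma5 (-2.12 and -2.24), Cpn1 (-1.77 and -1.999), Got1l1 (-1.72 and -2.36), Slc4a5 (-2.61 and -2.78), Rnf135 (-1.88 and -2.40), Myl4 (-1.82 and -2.68) and Serpinf1 (-1.70 and -2.62). Rnf135, Myl4, Serpinf1, Hormad2 and Arhgap27 lie on chromosome 11, which is described below. Limma adjusted p ranged from 0.270 to 0.479 over the 25 lower genes, and all 25 had an unadjusted p under 0.05.

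In 13 of the 25 lower genes the het libraries stood above each other library read in the same unit, 6 in FPKM and 2 in RPKM, as they did in 12.3% of the 11232 genes compared that all 10 libraries list. The ranking had already set het above KO in the 25, while 29.5% of all genes compared were lower in KO in both pairs. The share of the 25 and that of all genes are therefore not on equal terms. The 13 include Xlr3a, Usp26, Mt4, Hormad2, Lgals7 and Slc4a5. On the higher side the het libraries stood below each other library in 8 of 25 genes, Emp1, Fstl1 and Wls among them, against 3.15% of all. The same limit holds there, since the ranking had set het below KO. Arhgap27, a GTPase-activating protein gene, was 2.28 FPKM and 1.64 RPKM in the KO libraries, against 26.8 FPKM and 34.1 RPKM in the het libraries. In the 6 other libraries it lay between 1.42 and 3.06 (FPKM or RPKM). Braf, the kinase that passes RAS signals to ERK, was 7.45 FPKM and 8.04 RPKM in the KO libraries, against 55.4 FPKM and 68.6 RPKM in the het libraries. It was 4.85 FPKM and 31.0 RPKM in KO cells given mutant SALL4A and between 2.95 and 7.62 FPKM in the DKO, its control and the Sall1 lines. These levels come from tables that were normalised separately. The changes in pairs 1 and 2 were -3.07 and -3.78 for Arhgap27 and -2.73 and -2.999 for Braf, and Braf was at -0.17 in DKO over its control.

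To show what lies before genes that led each side, the 250 bases before the annotated start are printed for the first 2 ranked genes per direction with 1 window in the table. They come from RefSeq on GRCm38.p6, and capitals mark CG dinucleotides, the site of most 5-methylcytosine; CG reads the same on both strands. The windows of the higher genes are at chr2:62412232-62412481, minus strand, 4 CG for Dpp4 and chr7:6730420-6730669, minus strand, 8 CG for Peg3. Those of the lower genes are at chrY:1010345-1010594, plus strand, 10 CG for Eif2s3y and chrX:73097096-73097345, minus strand, 3 CG for Xlr3a.
Dpp4: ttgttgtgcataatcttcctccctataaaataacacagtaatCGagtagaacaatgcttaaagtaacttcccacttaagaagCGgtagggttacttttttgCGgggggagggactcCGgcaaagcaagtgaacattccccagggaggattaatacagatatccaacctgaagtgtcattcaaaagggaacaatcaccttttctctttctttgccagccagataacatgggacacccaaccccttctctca
Peg3: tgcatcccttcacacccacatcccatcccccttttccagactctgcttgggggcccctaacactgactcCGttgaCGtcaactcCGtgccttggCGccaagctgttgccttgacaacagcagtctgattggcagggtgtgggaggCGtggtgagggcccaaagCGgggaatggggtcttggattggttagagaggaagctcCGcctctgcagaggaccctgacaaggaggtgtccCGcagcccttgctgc
Eif2s3y: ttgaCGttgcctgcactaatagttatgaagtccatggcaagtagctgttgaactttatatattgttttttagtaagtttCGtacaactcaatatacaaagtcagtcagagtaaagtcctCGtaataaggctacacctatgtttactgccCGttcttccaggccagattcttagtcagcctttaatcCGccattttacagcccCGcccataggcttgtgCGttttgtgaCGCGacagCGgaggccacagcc
Xlr3a: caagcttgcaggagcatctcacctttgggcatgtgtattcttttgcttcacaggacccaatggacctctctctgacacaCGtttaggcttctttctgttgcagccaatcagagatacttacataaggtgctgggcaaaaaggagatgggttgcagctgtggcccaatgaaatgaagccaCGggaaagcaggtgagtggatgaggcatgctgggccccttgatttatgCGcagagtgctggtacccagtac
The median over all 32851 windows in the table was 6 CG, with quartiles of 2 and 16, and 92.1% held at least 1. By their count alone these 4 windows do not part the higher from the lower genes. Only 57.7% of the genes compared had a window, too few for the planned comparison of base composition, which is void.

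All 4 measured genes of the Y-linked list were lower in KO in both pairs, as were 83.3% of the 6 compared genes annotated to the Y chromosome. Eif2s3y, the Y-linked gene of a subunit of translation initiation factor 2, was 0.0391 FPKM and 1.39 RPKM in the KO libraries, against 12.3 FPKM and 33.1 RPKM in the het libraries. Ddx3y, an RNA helicase gene, was 0.0466 FPKM and 0.145 RPKM in the KO libraries, against 2.23 FPKM and 6.34 RPKM in the het libraries. The histone demethylase gene Uty was 1.02 FPKM and 0.473 RPKM in the KO libraries, against 3.06 FPKM and 2.94 RPKM in the het libraries, and Ube1y1, a ubiquitin-activating enzyme gene, was 0.154 FPKM and 0.288 RPKM in the KO libraries, against 1.61 FPKM and 2.76 RPKM in the het libraries. All 4 were at 2-fold or more, with medians of -1.397 in pair 1 and -2.14 in pair 2. In DKO over its control the same 4 genes had a median of 0.16. X-linked reproductive clusters were lower as well. Of 12 measured members 11 were lower in both pairs, against 29.5% of all genes compared, and 5 of them at 2-fold, against 1.5%. Their medians were -0.96 and -1.70, against 0.00049 and 0.0059 for all genes compared. Beside Xlr3a and Usp26, Xlr3b had changes of -1.499 and -3.22, Xlr3c -1.15 and -2.34, the ferritin-like Fthl17 -1.12 and -2.10 and the homeobox gene Rhox1 -0.93 and -1.45. The exception, Rhox9, was at -0.46 and 0.03. Xlr3a and Usp26 are also among the 25 ranked lower genes. The list was drawn up with earlier results of these data known, so it repeats part of that ranking. Xlr3a, Xlr3b and Xlr3c are near-identical copies, so they are not separate results. In bulk samples fewer cells with an RNA and less of that RNA per cell cannot be told apart.

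Genes of chromosome 11 were lower in KO as a chromosome. The median change of its 1205 genes was -0.37 in pair 1 and -0.36 in pair 2. Over the other autosomes and the X chromosome, medians lay between -0.023 and 0.11 in pair 1 and between -0.056 and 0.096 in pair 2. Of the chromosome 11 genes 60.4% were lower in both pairs, against 26.6% of 12977 genes elsewhere, and 8.71% were higher in both. The shift ran along the chromosome. In 13 windows of 10 Mb, medians lay between -0.49 and -0.018 in pair 1 and between -0.52 and -0.091 in pair 2, and the window nearest 0 in both pairs, from 10 to 20 Mb, held 31 genes. It was also seen at each level of expression: genes with a mean level under 5 had medians of -0.34 and -0.17, those from 5 to 20 had -0.39 and -0.28, and those at 20 or more had -0.38 and -0.50.

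The libraries showed which side stood apart. Over 9456 genes at 1 or more in 10 libraries, the median log2 level of the 794 genes on chromosome 11 exceeded that of all other genes by 0.17 and 0.20 in the KO libraries and by 0.73 and 0.80 in the het libraries. In the other 6 libraries the excess was between 0.079 and 0.24: 0.20 and 0.24 in KO cells given mutant SALL4A, 0.079 in DKO, 0.17 in its control, 0.13 in Sall1 KO and 0.11 in Sall1 het. The KO mean was 0.58 below the het mean (log2). No other chromosome among the autosomes and X differed between KO and het means by more than 0.18. Chromosome 8 set both groups apart from the DKO, its control and the Sall1 lines. Its excess was 0.51 and 0.47 in KO and 0.38 and 0.43 in het, against -0.024 to 0.038 in those lines. KO cells given mutant SALL4A had 0.56 and 0.37. The values for chromosomes 8 and 11 were read within each library, but the tables differ in annotation and normalisation. DNA copy number of these lines was not analysed here.

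**Figure D3:**
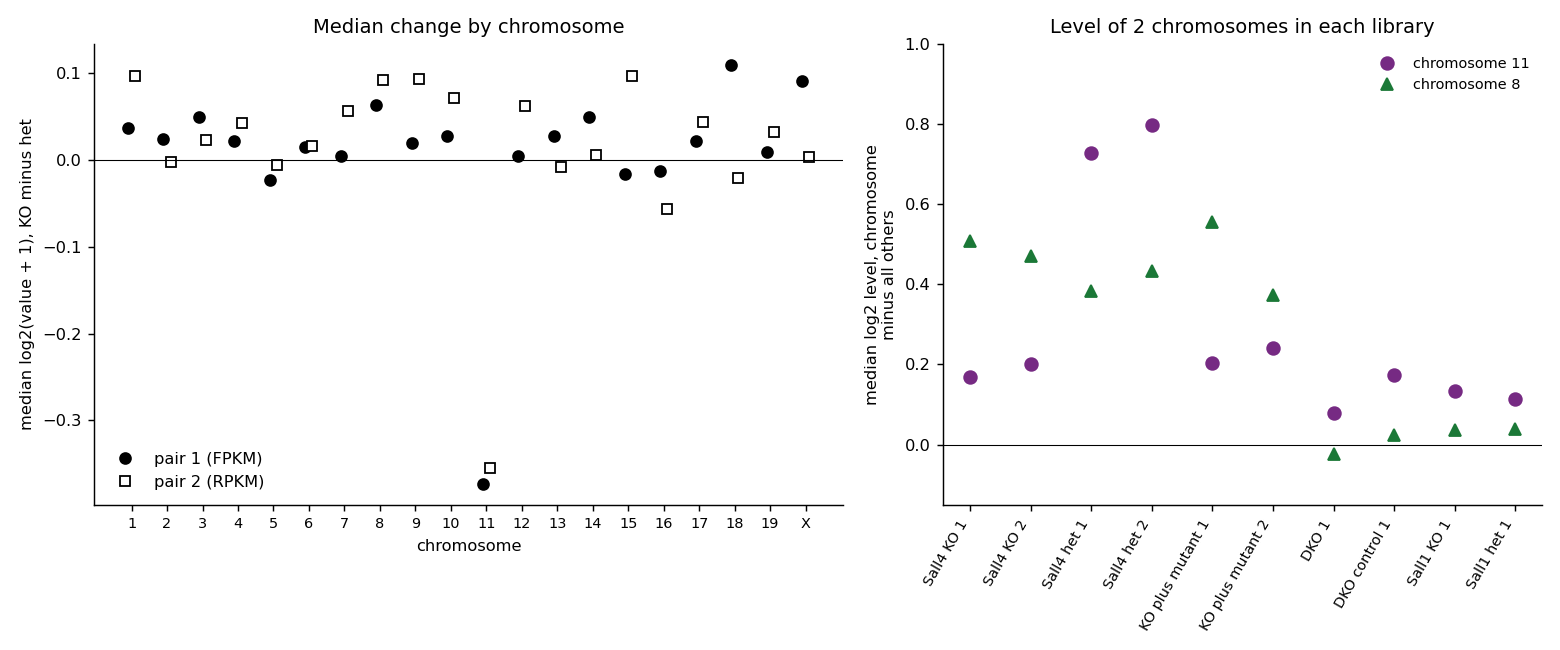
Left, median change (log2(value + 1), KO minus het) of the genes of each chromosome in pair 1 (filled circles) and pair 2 (open squares), with chromosome 11 at -0.37 and -0.36. Right, median log2 level of the genes on chromosome 11 (circles) and chromosome 8 (triangles) minus that of all other genes in each of 10 libraries, with chromosome 11 at 0.17 and 0.20 in KO and 0.73 and 0.80 in het.

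Chromosome 11 thus lies beside several single results. Of the 213 genes at 2-fold lower in both pairs 35 are on it (2.90% of its genes), and the other 178 make up 1.37% of the genes elsewhere. Ppia, the gene of cyclophilin A and often used as a reference in expression assays, is on it and stood at 1378 FPKM and 1766 RPKM in the KO libraries, against 2560 FPKM and 3242 RPKM in the het libraries. Suz12, a core subunit of the Polycomb repressive complex that methylates histone H3 at lysine 27, is on it too, with changes of -1.14 and -0.78, while Ezh2, the catalytic subunit on chromosome 6, had -0.015 and 0.48. The glycolytic enzyme gene Aldoc (-1.36 and -1.07), the T cell factor gene Tcf7 (-0.86 and -0.97) and Pecam1 (-1.61 and -0.46) are further members of the lists on this chromosome. Chd3, a NuRD remodeller gene on the same chromosome, went the other way, at 16.2 FPKM and 10.8 RPKM in the KO libraries, against 6.46 FPKM and 3.84 RPKM in the het libraries.

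The SALL family and the proteins that SALL4 is known to work with were described next. Sall1, on chromosome 8, was 49.7 FPKM and 67.9 RPKM in the KO libraries, against 27.1 FPKM and 37.8 RPKM in the het libraries. Sall2 was 2.90 FPKM and 3.62 RPKM in the KO libraries, against 1.83 FPKM and 2.26 RPKM in the het libraries, and Sall3 was 2.25 FPKM and 1.36 RPKM in the KO libraries, against 0.135 FPKM and 0.231 RPKM in the het libraries. All 4 family members were higher in KO in both pairs, and 0 were at 2-fold in both. Among NuRD subunits 9 of 15 were higher in both pairs, against 30.1% of all genes compared, and 1 was lower, against 29.5%. The medians were 0.23 and 0.16. Only Chd3 was at 2-fold in both, at 1.22 and 1.23; Mbd2, a methyl-CG binding subunit, had 0.54 and 0.98 and the deacetylase gene Hdac1 0.067 and -0.77. The list for cytosine methylation and oxidation had 24 measured members, of which 7 were higher in both, 7 lower in both and 0 at 2-fold. Both counts of 7 lie near the shares over all genes compared. Tet1 was 19.14 FPKM and 16.0 RPKM in the KO libraries, against 27.5 FPKM and 11.5 RPKM in the het libraries, so that the pairs disagreed (-0.49 and 0.39). Tet2 had changes of 0.16 and 0.048 and Tet3 of 0.61 and 0.70. The de novo methyltransferase genes Dnmt3a (-0.74 and -0.63) and Dnmt3b (-0.58 and -0.49) were lower in both pairs, and their cofactor gene Dnmt3l (0.29 and 0.23) was higher in both. Gadd45g (1.22 and 0.79) and Gadd45a (-0.77 and -0.68), of a stress-response family linked to demethylation, went in opposite directions.

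Pluripotency genes gave no common direction. Of 27 measured 8 were higher in both pairs, against 30.1% of all genes compared, and 6 lower in both, against 29.5%. The medians were 0.012 and 0.11. At 2-fold higher in both pairs were 0, against 1.1% of all genes compared, and at 2-fold lower 1, against 1.5%. That gene was Dppa3 (-3.96 and -5.38), described above. Nanog was 88.9 FPKM and 208 RPKM in the KO libraries, against 138 FPKM and 397 RPKM in the het libraries, lower in both pairs with changes of -0.61 and -0.99. The naive factor gene Tfcp2l1 was 21.6 FPKM and 10.1 RPKM in the KO libraries, against 7.09 FPKM and 4.55 RPKM in the het libraries, higher by 1.495 and 0.94. Gbx2 had changes of 1.24 and 0.76, Utf1 -0.57 and -0.52 and Fgf4 -0.75 and -0.23. In the formative and primed list of 13 genes 6 were higher in both and 3 lower, with Cdh2, the gene of N-cadherin, at 1.504 and 0.86, Sox4 at 0.69 and 1.22 and Otx2 at -0.52 and -1.55.

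Genes of basement membrane and of the mesenchymal, contractile and matrix list were mostly higher in KO. Of 14 basement membrane genes 12 were higher in both pairs, against 30.1% of all genes compared, and 1 was lower, against 29.5%. The medians were 0.35 and 0.99. The type IV collagen gene Col4a1 was 19.3 FPKM and 11.7 RPKM in the KO libraries, against 8.14 FPKM and 3.09 RPKM in the het libraries. Its partner Col4a2 was 11.1 FPKM and 6.19 RPKM in the KO libraries, against 4.25 FPKM and 1.20 RPKM in the het libraries. Both lay at 2-fold or more in each pair, and the laminin genes Lamc1 (0.22 and 1.13) and Lama5 (0.61 and 1.03) and the perlecan gene Hspg2 (0.28 and 1.12) were higher in both with the larger change in pair 2. In the mesenchymal list 18 of 30 were higher in both, 2 lower in both, and 8 at 2-fold higher, against 1.1% of all genes. The medians were 0.89 and 0.67. Beside Emp1, Fstl1, Pmp22 and Cav1, the annexin genes Anxa1 (1.34 and 1.06), Anxa2 (1.16 and 1.12) and Anxa3 (1.38 and 1.54) were at 2-fold in both pairs, as was the low fibrillar collagen gene Col3a1 (1.60 and 1.10). Emp1, Fstl1, Pmp22 and Cav1 are also among the 25 ranked higher genes. The lists were drawn up with earlier results of these data known, so the mesenchymal list repeats part of that ranking. Vim, the vimentin gene, was 484 FPKM and 265 RPKM in the KO libraries, against 272 FPKM and 121 RPKM in the het libraries. The summed level of this list was 2119 and 1479 in KO against 1195 and 1032 in het. In DKO over its control 17 of 30 members of this list were higher, with a median of 0.044, and 7 of 14 basement membrane genes, with a median of 0.020. Other mesenchymal members had changes of opposite sign in the Sall4 pairs. Cyr61 had 1.84 and -0.45, Ctgf 0.81 and -0.96, Tagln 1.02 and -0.49 and Myl9 0.19 and -2.31.

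Primitive endoderm genes overlap with the basement membrane list. Of 13 measured 9 were higher in both pairs and 3 lower in both, with medians of 0.60 and 0.67, while in DKO 6 of 13 were higher, with a median of -0.017. Shares over all genes compared were 30.1% higher and 29.5% lower in both Sall4 pairs. The endoderm factor gene Gata4 was low, at 1.95 FPKM and 2.11 RPKM in the KO libraries, against 0.824 FPKM and 0.200 RPKM in the het libraries, and Dab2, an endocytic adaptor gene, was 5.32 FPKM and 3.61 RPKM in the KO libraries, against 1.69 FPKM and 1.21 RPKM in the het libraries. Gata6, Sox7 and Foxa2 did not reach 1 in at least 1 library of each pair, and Cited1 (-1.04 and -1.75) and Sparc (-0.55 and -0.55) were lower in both pairs. Among trophoblast genes 6 of 13 were higher in both and 3 lower, led by Id2 and the imprinted Phlda2 (-1.11 and -2.02) in opposite directions. Cdx2, the trophectoderm regulator, was 2.58 FPKM and 1.09 RPKM in the KO libraries, against 0.116 FPKM and 0.167 RPKM in the het libraries. Of 13 primitive streak and mesoderm genes only Hand1 (1.15 and 0.87) and Eomes (0.73 and 0.13) were measured.

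Signalling lists differed in how well the pairs agreed. Over all genes compared 30.1% were higher in both pairs and 29.5% lower, and the FGF and ERK list below lay near these shares. Of 11 BMP and ID genes 8 were higher in both pairs and 0 lower, with medians of 0.50 and 0.34. The ligand gene Bmp4 had changes of 0.50 and 0.20 and the receptor gene Bmpr1a 0.75 and 0.34. Id2, a BMP target whose product blocks helix-loop-helix factors, was 49.1 FPKM and 41.2 RPKM in the KO libraries, against 12.6 FPKM and 16.2 RPKM in the het libraries. Id1 had 1.66 and 0.34 and Id3 0.92 and -0.46. In the NODAL pathway 7 of 18 were higher in both and 5 lower, with the ligand Nodal at 0.92 and 0.53 and the inhibitor Lefty1 at -0.078 and 1.46. The WNT pathway had 10 of 23 higher in both and 6 lower, with Wls first, the cyclin gene Ccnd1 at -0.82 and -1.26 and the secreted inhibitor Sfrp1 at 0.50 and 1.03. In the FGF and ERK list 7 of 25 were higher in both and 7 lower, with the ERK phosphatase gene Dusp6 at 1.56 and 0.55, Spred1 at 0.79 and 1.15 and Braf far lower. The LIF, STAT3 and MYC list had 5 of 12 higher in both and 0 lower, with Junb at 1.02 and 0.78 and Myc at 0.77 and -1.06.

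Germline and meiosis genes were mostly lower in KO. Of 26 measured 17 were lower in both pairs, against 29.5% of all genes compared, and 3 higher in both, against 30.1%. At 2-fold lower were 5, against 1.5% of all genes. The medians were -0.39 and -0.71, and without the 2 members on chromosome 11 they were -0.33 and -0.62. Beside Hormad2 and Tuba3a, Tuba3b had changes of -1.65 and -2.17, the retinoic acid target Stra8, a regulator of meiotic entry, -1.29 and -1.34 and the cohesin gene Smc1b -1.01 and -1.01. The RNA-binding factor gene Dazl was 2.49 FPKM and 1.402 RPKM in the KO libraries, against 4.45 FPKM and 7.69 RPKM in the het libraries. Prdm1, a regulator of primordial germ cells, was on the other side, at 0.38 and 1.24, as were Dmrt1 (0.30 and 1.26) and Dnd1 (0.029 and 0.37). Tuba3a and Tuba3b are near-identical copies, as are the Xlr3 genes, so how reads were shared between them is uncertain. Hormad2 and Tuba3a are also among the 25 ranked lower genes, so the germline list repeats part of that ranking.

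Enzymes of cholesterol synthesis were lower in KO together. Of 21 measured genes 19 were lower in both pairs, against 29.5% of all genes compared, and 0 higher in both, against 30.1%. The medians were -0.53 and -0.68, and none of the 21 is on chromosome 11. In pathway order, the mevalonate kinase gene Mvk had changes of -0.28 and -0.40, Pmvk -0.52 and -0.45 and Fdps -1.02 and -1.28. Fdft1, which makes squalene, was 14.1 FPKM and 16.9 RPKM in the KO libraries, against 28.3 FPKM and 45.6 RPKM in the het libraries. Sqle had -0.51 and -0.79, Lss -0.70 and -0.85, Cyp51 -0.50 and -1.04, Sc4mol -0.78 and -0.77 and Dhcr7 -0.79 and -0.70. Insig1, the sterol-regulated brake on SREBP processing, was 17.6 FPKM and 23.8 RPKM in the KO libraries, against 38.6 FPKM and 41.8 RPKM in the het libraries. Fdps, which makes the farnesyl precursor of squalene, was the 1 member at 2-fold in both pairs. Ebp (2.3e-05 and -0.68) and Sc5d (0.14 and -0.38) were not lower in both. In fatty acid synthesis 7 of 11 genes were lower in both and 0 higher, with medians of -0.90 and -0.40, which were -0.92 and -0.40 without the 4 members on chromosome 11. The desaturase gene Scd1 was 5.67 FPKM and 4.43 RPKM in the KO libraries, against 19.05 FPKM and 10.6 RPKM in the het libraries. Fads2 had -1.43 and -1.11. In the DKO over its control the cholesterol list had 0 of 21 members higher and a median of -0.86, and the fatty acid list 1 of 11 higher and a median of -0.52.

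Other lists went one way in the Sall4 pairs and the other in DKO over its control. Over all genes 29.5% were lower in both Sall4 pairs and 50.2% were higher in DKO. Of 58 replication-dependent histone genes 39 were lower in both Sall4 pairs and 2 higher, with medians of -0.56 and -0.70, while in DKO 51 of 54 were higher, with a median of 0.59. Most of these messages lack a poly(A) tail and many genes are near-identical, so their values depend on how RNA was selected and reads were shared, and the sources used here give neither. Of 16 interferon and antigen presentation genes 12 were lower in both and 1 higher, with medians of -0.44 and -0.56, against 0.80 in DKO. H2-K1, a class I antigen-presenting gene, was 18.8 FPKM and 16.5 RPKM in the KO libraries, against 48.7 FPKM and 31.3 RPKM in the het libraries, and the immunoproteasome gene Psmb8 2.36 FPKM and 1.98 RPKM in the KO libraries, against 5.18 FPKM and 11.8 RPKM in the het libraries.

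Of 33 imprinted genes 21 were listed for all 4 libraries and 18 were measured, of which 8 were higher in both pairs and 6 lower. Some were listed in 1 pair only and left out. Among these Meg3 was 277 RPKM in KO against 103 RPKM in het, and Mest 12.3 FPKM in KO against 41.5 FPKM in het. The shares over all genes compared were 30.1% higher and 29.5% lower, and the Polycomb list below lay near them. Beside Peg3 and Igf2, Cdkn1c, a cyclin-dependent kinase inhibitor gene, had changes of 1.05 and 0.94, and Slc38a4 (-1.92 and -1.52), Phlda2 and Nnat (-1.28 and -0.96) were lower in both. Cell cycle genes were higher in both pairs in 16 of 25 and lower in 4. The inhibitor genes Cdkn1b (0.63 and 1.74) and Cdkn2a (1.22 and 1.00) and the kinase gene Cdk4 (0.84 and 0.54) were among the higher ones. Of 22 p53 targets 12 were higher in both and 3 lower. Perp, an adhesion protein gene, was 33.7 FPKM and 35.1 RPKM in the KO libraries, against 11.1 FPKM and 12.4 RPKM in the het libraries, while Rrm2b, a ribonucleotide reductase gene, had -0.94 and -2.13. Among Polycomb genes 4 of 13 were higher in both and 4 lower, and Bmi1 was 4.31 FPKM and 7.79 RPKM in the KO libraries, against 0.810 FPKM and 2.11 RPKM in the het libraries. In the metallothionein and iron list 2 of 10 genes were higher in both pairs and 5 lower, with medians of -0.16 and -0.55. At 2-fold lower in both were 2, against 1.5% of all genes compared. Mt4 was lower in both pairs (-2.61 and -4.04). Mt1 was 347 FPKM and 848 RPKM in the KO libraries, against 323 FPKM and 4216 RPKM in the het libraries. Mt1 thus differed between pairs (0.12 and -2.37), and so did glycolysis genes, with medians of -0.43 in pair 1 and 0.20 in pair 2. Higher and lower in both pairs were 3 and 1 of 6 neuroectoderm genes, 6 and 4 of 12 genes of histone H3 lysine 9 methylation and retroelement silencing, 8 and 5 of 17 surface genes of ES cells, 5 and 2 of 11 feeder markers and 1 and 4 of 10 general controls.

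**Figure D4:**
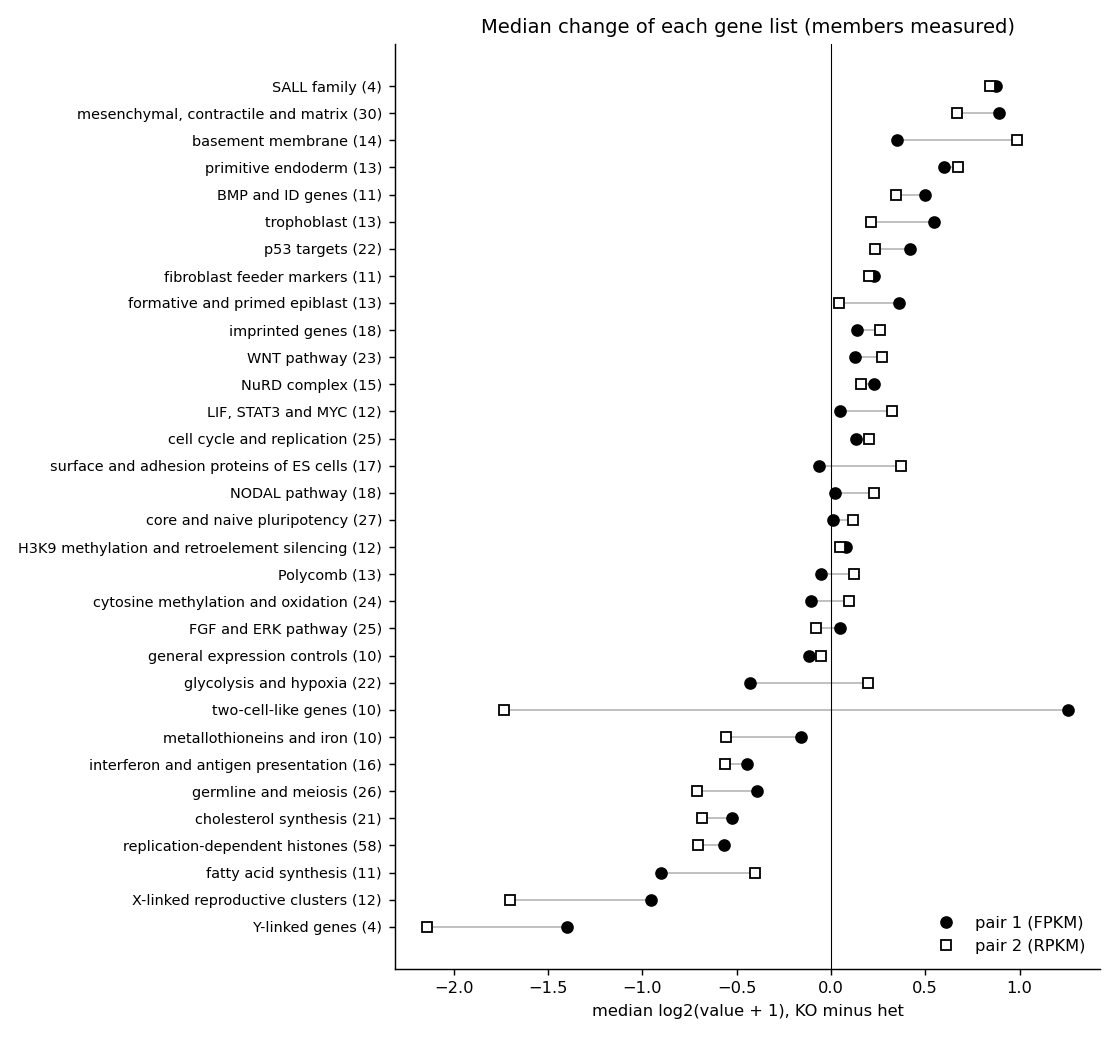
Median change (log2(value + 1), KO minus het) of gene lists in pair 1 (filled circles) and pair 2 (open squares), with the number of measured members in brackets. Lists from Y-linked genes (-1.397 and -2.14) to interferon genes (-0.44 and -0.56) lay below 0 in both pairs, and two-cell-like genes lay at 1.26 and -1.73.

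The genes at 2-fold in both Sall4 pairs were then read in the DKO line, where Sall4 is lost together with Sall1. Of the 156 higher genes 97 were measured there, and 79.4% of them were higher in DKO than in its control, with a median of 0.71. At 2-fold 35 of them were higher (36.1%) and 1 was lower, while 4.13% of all 10747 genes were at 2-fold higher and 2.91% at 2-fold lower. Of the 213 lower genes 134 were measured, and 76.1% were lower in DKO, with a median of -0.65. At 2-fold 48 were lower (35.8%) and 6 higher. Over all genes 50.2% were higher. Without chromosome 11 the shares were 79.1% and 77.1%. In Sall1 KO over Sall1 het 33.7% of 89 higher genes were higher and 46.5% of 127 lower genes were lower, with medians of -0.055 and 0.0197, where 0.16% of all 10645 genes were at 2-fold higher and 0.178% lower. These pairs have 1 library per group and no replicate check, and they share no library with the Sall4 pairs.

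Among the named genes, Dpp4 was 23.9 FPKM in DKO against 3.81 FPKM in its control, a change of 2.39. Fstl1 had 1.82, Emp1 1.72, Gulp1 1.98, Tmem90b 1.73 and Igf2 1.30. On the lower side Aurkc was 3.64 FPKM in DKO against 31.2 FPKM in its control, a change of -2.77, and Tmem40 had -2.57, Mt4 -2.20, Tuba3a -2.13, Cpn1 -1.99 and Crabp1 -1.85. Of the 25 named higher genes 20 were higher in DKO, and of the 25 named lower genes 5 were. The 5 were Dppa3, Eif2s3y (0.15), Arhgap27 (0.48), Fmr1nb (0.26) and Serpinf1 (0.099). Peg3 (-0.43), Kdm4b (-0.41), Mras (-0.21), Cav1 (-0.18) and Hal (-0.098) were the 5 higher genes that were lower there. None of the 50 was at 2-fold in Sall1 KO over Sall1 het.

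**Figure D5:**
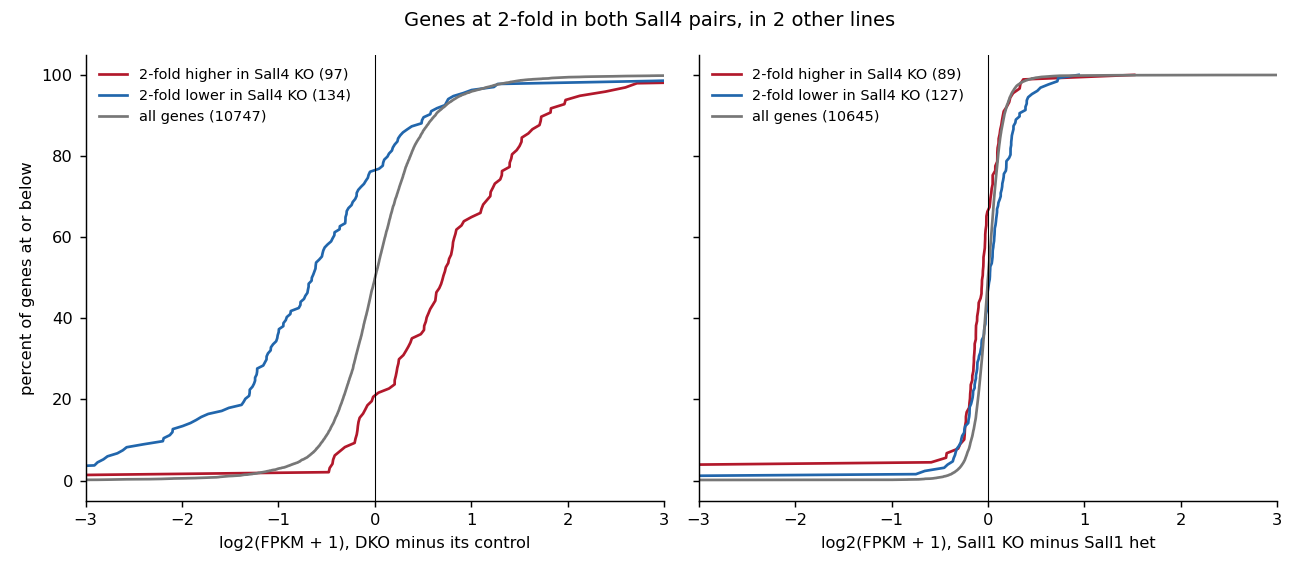
Cumulative share of genes (y axis, percent) by their change in DKO over its control (left) and in Sall1 KO over Sall1 het (right), on the log2(FPKM + 1) scale with the axis ending at -3 and 3, for genes at 2-fold higher (red) or lower (blue) in both Sall4 pairs and all genes (grey). In DKO the medians were 0.71 and -0.65 against 0.0027 for all genes, and in the Sall1 pair -0.055 and 0.0197.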

How the data were processed

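RNA of mouse ES cells was measured by sequencing. The deposited values are FPKM in replicate 1 and in the other lines and RPKM in replicate 2, per the file headers. The submitters' processing notes name TopHat, Bowtie 0.12.7, SAMtools, MACS 1.4.2 and mm9 without roles, and the sources used here do not give the RNA library protocol. Depth is unknown.

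Entries that share a symbol were summed. For replicate 1 a total of 1225 of 37883 entries name no gene and were left out, with 5.93% of the sum in KO and 4.79% in het. KO and het were scaled within a pair by the median of their ratios, taken where both reached 1 (factors between 0.980 and 1.02), and 1 was added before log2. A two-sided test with limma 3.58.1 (R 4.3.3, eBayes with a trend, Benjamini-Hochberg) used log2 values of genes that reached 1 in 2 or more of 6 libraries, with group and replicate number as terms. In 2 KO libraries against 2 het libraries alone an exact permutation test that ignores the pairs cannot go below a p of 0.333. Swaps kept within the pairs allow fewer arrangements. Replicate number marks the unit and, for KO and het, annotation and strain label. The mutant libraries list other numbers of entries than KO and het. These were 23234 against 37883 in replicate 1 and 20223 against 19049 in replicate 2. The replicate term does not take up that difference. Deviations from group means of same-numbered libraries had correlations of 0.57 for KO and het, 0.065 for KO and mutant and 0.10 for het and mutant over 12210 genes. In KO plus mutant replicate 2, 20 symbols were set by Ensembl identifier.

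Genes named by rank were the 25 per direction with the largest smaller-of-pair change at 5 or more in each pair, and 10 of opposite sign, without predicted genes, clones, pseudogenes and small RNAs. From each of 34 gene lists up to 6 members with the largest mean change could be named, and some further members were named after their values were seen. The genes, lists and tests were chosen with earlier results of these data known. Alternatives are in the closing section. Python 3.11.15 and pandas 2.3.3 were used, and the scripts were tested on simulated data.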

Additional observations from a re-analysis of the deposited data

Results flagged for a closer look

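Genes that moved one way in pair 1 (strain label C57BL/6J) and the other way in pair 2 (129P2/OlaHsd) are given here as changes of log2(value + 1), KO minus het. Each pair has 1 library per group, so the difference between pairs was not tested, and strain label, unit and annotation cannot be told apart. The 10 genes are those with the largest such changes. Prmt2, an arginine methyltransferase gene, had -3.27 in pair 1 and 1.47 in pair 2, with 10.0 FPKM and 11.7 RPKM in KO against 106.1 FPKM and 3.43 RPKM in het. The het library of replicate 1 stood apart. Fam184a had -1.67 in pair 1 and 1.404 in pair 2, and Chac1, a glutathione-degrading enzyme gene, -1.21 in pair 1 and 1.69 in pair 2.

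The other way round were 5 copies of Zscan4, a gene family that marks the rare two-cell-like state of ES cells. Zscan4d had 1.36 in pair 1 and -1.91 in pair 2, Zscan4f 1.33 in pair 1 and -2.41 in pair 2, Zscan4e 1.31 in pair 1 and -1.68 in pair 2, Zscan4c 1.27 in pair 1 and -2.02 in pair 2 and Zscan4b 1.248 in pair 1 and -1.83 in pair 2. These copies are near-identical and share reads, so they are not 5 separate results. Zscan4f was 25.5 FPKM and 6.99 RPKM in KO against 9.60 FPKM and 39.9 RPKM in het. Ly6a, a surface antigen gene, had 1.16 in pair 1 and -1.53 in pair 2, and Dcdc2c 1.13 in pair 1 and -1.96 in pair 2.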

How the results depend on the processing

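Limma calls stayed at 0 under 7 of 9 alternatives, beside those that leave out 1 library. The count was 1 with a pseudocount of 0.1 and 1 with upper-quartile scaling, which was the microRNA gene Mir3060 in both. It was 0 without the replicate block, which ends no call, and 0 without genes of chromosome 11, an alternative chosen after seeing the data. Leaving out 1 library gave between 0 and 13 calls: 13 without Sall4 het replicate 1, 5 without Sall4 het replicate 2 and 0 without any 1 of the other 4 libraries. Such a fit takes the spread of a group left with 1 library from the remaining groups. With a pseudocount of 0.1 the counts at 2-fold were 287 higher, 371 lower and 172 opposite, and with 5 they were 56, 74 and 46. The filters, the values as deposited, upper-quartile scaling (192 higher and 193 lower) and leaving out chromosome 11 (148, 178 and 105) kept all 3 counts within 1.5 times. Leaving out a library gives no value for counts over both pairs. Over 51 genes no direction turned in 714 refits. Most of them were ranked for a large change of the same sign in both pairs. That left little room for a turn, so the refits are no separate check of direction. Of 494 refitted list medians 101 moved by more than the spread between pairs. Upper-quartile scaling moves the median of all genes by 0.058.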
